A study of Mus musculus with 6 samples.

Results

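The transcription factor p53 (gene Trp53) and 9 of its best-known direct target genes were followed in mouse chondrogenic cells exposed to an inflammatory cytokine with or without a small-molecule inhibitor. The members were the rows of the deposited expression table whose gene symbol was Trp53, Mdm2, Cdkn1a, Ccng1, Zmat3, Bax, Aen, Phlda3, Sesn1 or Trp53inp1. All 10 were found among the 16880 genes of the table, and all 10 passed the filter on low counts that left 11983 genes to test. RNA sequencing covered 2 groups of 3 libraries. The IL group was ATDC5, a mouse line used as a model of cartilage formation, given 10 ng/mL IL-1β for 24 h. The ILN group received the same IL-1β dose together with 10 μM NP-G2-044, an inhibitor of the actin-bundling protein fascin (gene Fscn1). A sample field of GEO spells the compound NP-G2-047, and the study's text speaks of chondrocytes where the labels give the single line ATDC5. Every cell analysed here had IL-1β, so the values compare the inhibitor on top of the cytokine and hold nothing on the cytokine itself. Cells without it were not analysed here.

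Cells keep p53 protein low by degrading it, mainly through Mdm2, a ubiquitin ligase whose gene p53 itself switches on. Stress that stabilises the protein lets it bind response elements near its target genes and raise their transcription, and the products halt the cell cycle, repair DNA, adjust metabolism or start cell death. Because the control acts on the protein, the Trp53 transcript and the transcripts of its targets are separate measurements, and the libraries hold no measurement of p53 protein or of its binding.

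The element p53 binds is made of 2 adjoining half-sites of 10 bases, each with a central CNNG. It was searched for in RefSeq promoter windows (GRCm38.p6, the assembly also called mm10) that run from 250 bases before to 50 bases after a gene's start, on both strands, with no spacer, the C and G of each half-site exact and at most 3 mismatches at the other positions. The windows covered 8 of the 10 genes, with Zmat3 and Trp53inp1 not among them. The matches are shown because they place the binding element, where the search found one, beside the genes whose transcripts are described next. Capitals mark bases that match the consensus of the element, and each line is read 5′ to 3′ along its gene.

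Cdkn1a: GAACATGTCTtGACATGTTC
Ccng1: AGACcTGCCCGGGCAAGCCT
Aen: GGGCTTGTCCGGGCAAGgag
Sesn1: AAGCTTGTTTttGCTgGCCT
Trp53: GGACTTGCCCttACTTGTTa

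The Cdkn1a element lies at chr17:29090928-29090947 on the plus strand, from 51 to 32 bases before the upstream of its 2 annotated starts. Its first base is 2841 bases before the other start. The Ccng1 element lies at chr11:40755462-40755481, with the gene on the minus strand, from 195 to 176 bases before the start. Each of these 2 had 1 mismatch. The other 3 had 3 mismatches each. The Aen element is at chr7:78895937-78895956 on the plus strand, inside an annotated Aen exon and 121 to 102 bases before the second start. The Sesn1 element is at chr10:41887266-41887285 on the plus strand, 173 to 154 bases before the second start. The Trp53 element is at chr11:69580284-69580303 on the plus strand, 75 to 56 bases before the start. Distances are counted from the start that defines each window, which for Ccng1 and Trp53 lies inside the gene position given below. Of the 11 windows of the 8 genes, 2 held an element with at most 1 mismatch and 6 one with at most 3, since both Aen windows hold the same bases. Of all 32851 windows, 22 (0.067%) and 453 (1.38%) did so. No match was found in the windows of Mdm2, Bax and Phlda3. A match is a run of letters and not a measured binding site, and a window without one says only that these letters are not in it. Genes with and without a match are found below among those that rose and among those that did not.

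The 6 libraries held between 16615824 and 17735860 reads assigned to genes, and the 3 libraries of a group differed from each other by 1.54 to 2.39 times the variance that sampling of reads alone gives, against 133 to 136 times between groups. Fscn1 itself averaged 616 ± 9.47 TPM (SD, n = 3) in IL and 252 ± 2.47 TPM in ILN. TPM, a level relative to all transcripts of a library, are corrected for transcript length, so that they can be compared between genes. Of 8 cartilage markers, 5 were listed. Col2a1 stood at 0.20 to 0.24 TPM in IL and at 0.02 to 0.06 TPM in ILN, from 32 and 6 reads in all. Sox9 stood at 5.94 to 7.21 TPM and at 11.3 to 11.4 TPM. Acan, Col9a1 and Hapln1 are not among the listed genes. Col11a1, Matn1 and Comp were below the filter on low counts, at 0.16 TPM or less in every library. Among 4 macrophage markers, of which 3 were listed, the summed TPM was 10.8 to 14.1 in IL and 124 to 135 in ILN, nearly all of it Cd68, a lysosomal protein, with Csf1r at 0.31 TPM or less and Ptprc, the pan-leukocyte marker, at 0 in every library. The summed TPM of 6 fibroblast markers was 21.4 to 23.3 in IL and 12.0 to 12.7 in ILN, with Thy1 at 0 throughout. Of the 4 fibroblast genes tested, 3 fell and 1, Pdgfra, rose, from a mean of 2.36 to 8.69 TPM. Of 4 osteoblast markers 2 were listed, both fell, and their sum was 2.85 to 4.55 TPM in IL and 0.38 to 0.53 TPM in ILN. Of all genes tested, 39.8% were lower in ILN and 40.2% higher. The 4 endothelial markers summed to 0.55 TPM or less and the 4 epithelial ones to 1.25 TPM or less in every library. The markers' part in the differences described next was not tested. These are whole cultures, in which a change in the share of cells that express a gene and a change of its RNA per cell cannot be told apart.

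With the inhibitor, 5 of the core genes rose, 2 fell and 3 did not pass the test. The genes that rose were Cdkn1a (3.74-fold), Aen (1.86-fold), Zmat3 (1.76-fold), Mdm2 (1.62-fold) and Bax (1.39-fold), with Sesn1 falling to 0.544 of its level in IL and Ccng1 to 0.945. Trp53, Phlda3 and Trp53inp1 were the 3 without a call. The test was edgeR's quasi-likelihood test over all genes, called at an adjusted p below 0.05. A large part of the transcriptome differed between the groups. The same test called 80.0% of the 11983 genes, 40.2% of all tested being higher in ILN and 39.8% lower, so that 7 calls among 10 genes are near the background and say nothing about the 10 as a set. Past the study's second cutoff as well, a log2 fold change over 1 in size, stood 1 of the 10, Cdkn1a, and 16.6% of all genes. The TPM of the 2 groups did not overlap for 7 of the 10 genes and for 79.4% of all genes tested. The median log2 fold change of the 10 was 0.20, and that of all genes tested 0.00.

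**Figure D1:**
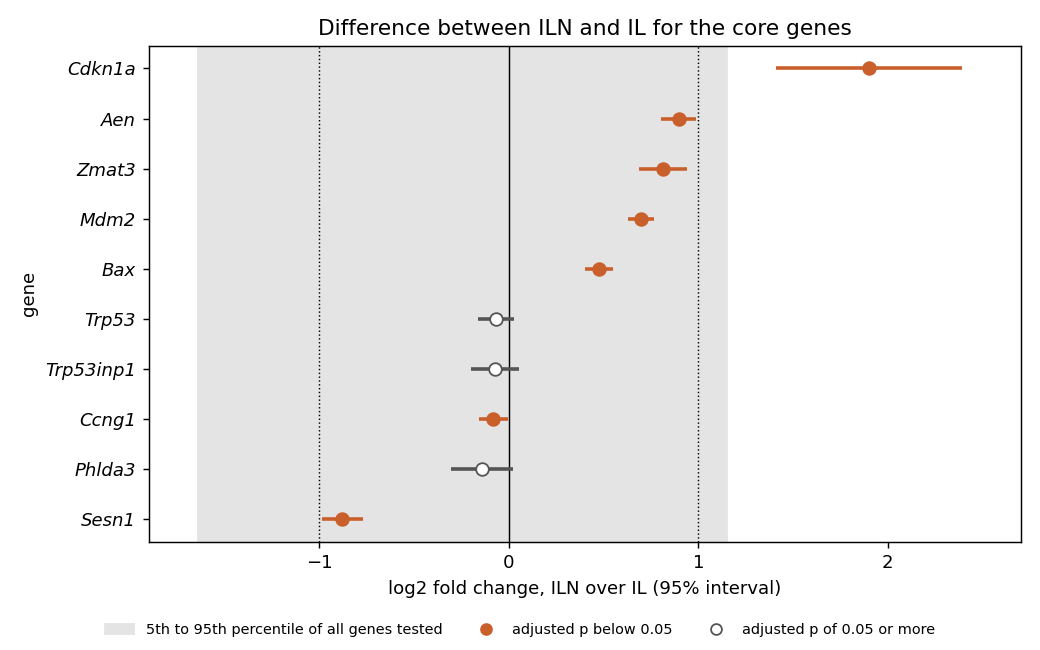
Log2 fold change of each core gene, ILN over IL, with its 95% interval from edgeR (3 libraries per group). The grey band spans the 5th to the 95th percentile of all 11983 genes tested (-1.64 to 1.15), the dotted lines are a log2 fold change of 1 in either direction, and only Cdkn1a lies beyond the band.

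Trp53 encodes the factor itself and lies at chr11:69580348-69591873. Its level was 52.1, 54.8 and 50.6 TPM in the 3 IL libraries and 51.8, 46.1 and 48.98 TPM in the 3 ILN libraries. The groups overlapped, with the first ILN library above the lowest IL library. The IL mean of 52.5 ± 2.16 TPM (SD, n = 3) stood against an ILN mean of 48.97 ± 2.83 TPM, a log2 fold change of -0.07 with a 95% interval of -0.16 to 0.03 (edgeR, adjusted p = 0.179). The interval leaves room for a transcript level between 0.893 and 1.02 times that in IL. The 6 libraries held 812 to 891 Trp53 reads each.

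Mdm2, the ligase that marks p53 for degradation and closes the negative feedback, lies at chr10:117688875-117710758. It stood at 49.1, 48.9 and 51.0 TPM in IL and at 80.9, 77.5 and 79.7 TPM in ILN. All 3 ILN libraries were far above all 3 IL libraries. This was a log2 fold change of 0.70 ± 0.03 (SE, edgeR, adjusted p = 5.18e-25). Mdm2 was the 1 core gene with counts that were not whole in some libraries, as estimated counts can be. The ratio of the Mdm2 to the Trp53 level within a library was 0.943, 0.891 and 1.01 in IL and 1.56, 1.68 and 1.63 in ILN, with no overlap, so that Mdm2 went from a level like that of Trp53 to one well above it.

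**Figure D2:**
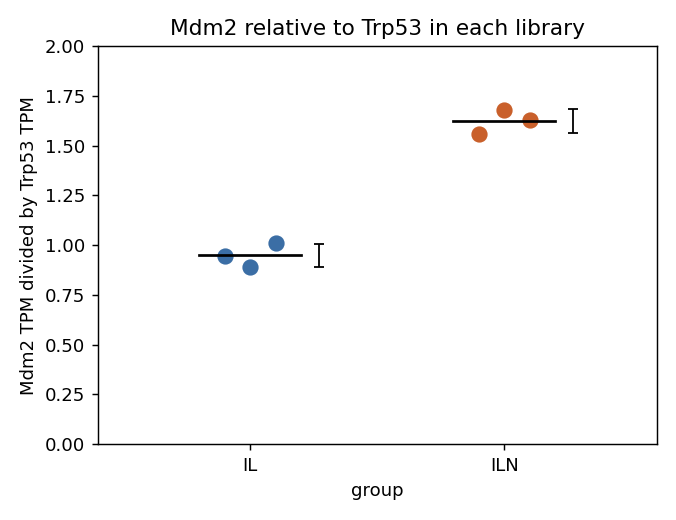
Mdm2 TPM divided by Trp53 TPM in each of the 6 libraries (points), with the mean of each group as a line and its SD as a bar. The IL libraries lie between 0.891 and 1.01, the ILN libraries between 1.56 and 1.68.

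A pair of core genes acts on the cell cycle. Cdkn1a, at chr17:29090979-29100722, encodes p21, the inhibitor of cyclin-dependent kinases that carries much of the p53-dependent arrest. It was the least expressed of the 10 genes in both groups, at 0.68, 1.29 and 0.46 TPM in IL and 2.45, 3.09 and 3.35 TPM in ILN. The lowest ILN library was above the highest IL library. The log2 fold change was 1.90 ± 0.24 (SE, edgeR, adjusted p = 1.52e-09), and 5.69% of all tested genes had a larger one in size. Only 42 reads in the 3 IL libraries and 166 in the 3 ILN libraries lie behind it, so the 95% interval of the log2 fold change is wide, from 1.41 to 2.39, and at a level of a few TPM this large fold was a small amount of transcript. On the log2(TPM + 1) scale, which understates the change of low genes, the difference was 1.15, and a filter of 10 CPM (reads scaled to the library total) in 3 libraries leaves the gene out. A provisional transcript model on the opposite strand shares 273 of the 3553 exon bases of Cdkn1a, and the sources used here do not say whether strand was used in counting.

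Ccng1, at chr11:40748552-40755309, encodes cyclin G1, a p53 target that recruits a phosphatase to Mdm2. It was abundant and nearly level, at 41.1, 45.9 and 43.8 TPM in IL and 41.8, 39.6 and 39.4 TPM in ILN. The groups overlapped. Its log2 fold change was -0.08, with a 95% interval from -0.159 to -0.00422 (edgeR, adjusted p = 0.0490), a call at the edge of the threshold. It was lost in 8 of 15 alternative analyses. Among these 8 were DESeq2 (adjusted p = 0.113) and the fits without IL replicate 2 (adjusted p = 0.270), without IL replicate 3 (0.0829), without ILN replicate 2 (0.153) and without ILN replicate 3 (0.152). Its element was one of the 2 with a single mismatch, as was that of Cdkn1a.

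Zmat3, at chr3:32334792-32365665, encodes a zinc-finger RNA-binding protein that acts on splicing and transcript stability. It rose from 3.79, 4.32 and 4.35 TPM to 7.35, 6.78 and 7.27 TPM, with a clear gap between the groups. That is a log2 fold change of 0.81 ± 0.06 (SE, edgeR, adjusted p = 4.21e-17).

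A further 3 of the 10 genes belong to cell death. Bax, the pore-forming protein of the mitochondrial outer membrane, at chr7:45461695-45466903, was the most abundant core gene in both groups. It stood at 214.5, 213.5 and 208 TPM in IL and at 287.7, 295 and 289 TPM in ILN, with no overlap. As a log2 fold change the rise was 0.48 ± 0.04 (SE, edgeR, adjusted p = 3.25e-17). It was thus the smallest of the 5 rises as a fold and the largest in TPM, from a mean of 212 to one of 290.6. A predicted gene on the same strand, Gm45808, shares 192 of the 1576 exon bases annotated for Bax, so a part of these reads may have been assigned to either.

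Aen, at chr7:78895927-78911209, encodes a nuclease that promotes apoptosis. It rose from 12.3, 12.7 and 13.4 TPM to 22.8, 23.99 and 22.5 TPM, and every ILN library was above every IL library. The log2 fold change of 0.90 ± 0.05 (SE, edgeR, adjusted p = 3.63e-24) was the largest after Cdkn1a among the core genes, and its 95% interval, from 0.80 to 0.99, ended just under the cutoff of 1.

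Phlda3, at chr1:135766085-135769134, encodes a membrane-binding protein that restrains the survival kinase Akt. It stood at 19.8, 18.6 and 21.1 TPM in IL and at 18.5, 17.4 and 17.1 TPM in ILN. All 3 ILN values were below the 3 IL values, though by 0.16 TPM at the nearest, while the groups overlapped in CPM. Its log2 fold change was -0.14, with a 95% interval of -0.30 to 0.02 (edgeR, adjusted p = 0.109). Limma on log2(TPM + 1) called it lower (limma, log2 difference -0.16, adjusted p = 0.0204).

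The last pair acts on growth and stress. Sesn1, at chr10:41810574-41908436, encodes sestrin 1, which restrains the growth kinase mTORC1. It fell from 26.2, 28.4 and 28.2 TPM to 13.9, 14.07 and 14.03 TPM. The 3 ILN libraries lay within 0.13 TPM of each other and far below every IL library. The log2 fold change was -0.88 ± 0.05 (SE, edgeR, adjusted p = 7.68e-21), of about the size of the rise of Aen in the opposite direction. The transcript length that the deposited values imply for Sesn1, which follows from counts and FPKM together, was 2549 to 2567 bases in IL and 2635 to 2686 bases in ILN, and 4.71% of the 8489 genes with at least 200 reads in every library shifted as much. The annotation gives the gene 2 protein-coding transcripts, of 2600 and 3809 bases, and RefSeq lists starts 76865 bases apart. Sesn1 was the core gene with the largest such shift, and the log2 shift of the other 9 lay between -0.0138 and 0.00716.

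Trp53inp1, at chr4:11156441-11174379, encodes a p53-induced stress protein that also takes part in autophagy. It stood at 8.08, 8.29 and 7.46 TPM in IL and at 7.38, 7.46 and 7.30 TPM in ILN. The highest ILN value met the lowest IL value. The log2 fold change was -0.07, with a 95% interval of -0.20 to 0.05 (edgeR, adjusted p = 0.284).

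**Figure D3:**
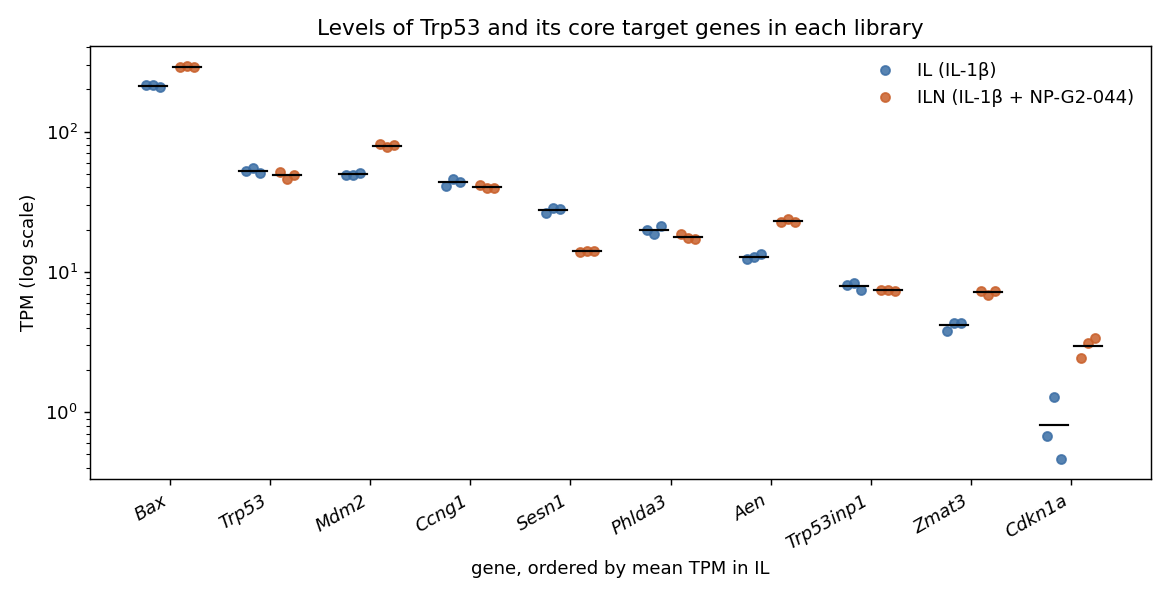
TPM of the 10 core genes in each library on a log axis (points, 3 per group), with the mean of each group as a line and the genes ordered by their mean in IL. Cdkn1a, Aen, Zmat3, Mdm2 and Bax are higher in every ILN library. Sesn1 is lower in every one, as is Phlda3, though by 0.16 TPM at the nearest. Trp53 and Ccng1 overlap between the groups, and Trp53inp1 meets at 1 value.

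The order of the 10 transcript levels changed where these genes moved. In IL it ran, in mean TPM, from Bax (212) over Trp53 (52.5), Mdm2 (49.7), Ccng1 (43.6), Sesn1 (27.6), Phlda3 (19.8), Aen (12.8), Trp53inp1 (7.94) and Zmat3 (4.15) to Cdkn1a (0.81), and Trp53 and Mdm2 were the only neighbours whose libraries overlapped. In ILN Mdm2 (79.4) stood second and clear of Trp53 (48.97), and Aen (23.1) stood above Phlda3 (17.7) and Sesn1 (14.01), which it had been below. Trp53inp1 (7.38) and Zmat3 (7.13) overlapped in ILN and were apart in IL. Cdkn1a remained last.

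Transcripts of the genes that control p53 did not move in one direction. Of 25 regulators, 23 were tested, 8 rose, 13 fell and 2 did not pass, a share of 91.3% called against 80.0% of all genes, with a median log2 fold change of -0.15. None was called with a log2 fold change over 1 in size, beside 16.6% of all genes tested. Mdm4, the partner of Mdm2 that masks the activating part of p53, rose from 31.3, 31.8 and 32.7 TPM to 45.3, 42.3 and 43.5 TPM (log2 fold change 0.49, edgeR, adjusted p = 4.58e-20). Rchy1, another ligase for p53, rose from a mean of 49.97 to 88.7 TPM (0.86, edgeR, adjusted p = 2.13e-20). Ppm1d, the phosphatase that ends the p53 response and is itself a target of p53, fell from 25.8, 27.4 and 28.2 TPM to 20.2, 18.7 and 19.1 TPM (-0.46, edgeR, adjusted p = 1.34e-11).

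Cdkn2a, which encodes both the Mdm2 inhibitor ARF and the cell cycle inhibitor p16, was far more abundant than Trp53, and fell from 664, 649.5 and 622 TPM to 469, 509 and 483 TPM (log2 fold change -0.43, edgeR, adjusted p = 1.83e-15). The 2 products share a symbol and could not be separated in these values. Pml, which assembles nuclear bodies that take up p53, fell from a mean of 13.8 to 8.13 TPM (-0.80, edgeR, adjusted p = 7.58e-18), and Trp53bp1, a DNA damage mediator that binds p53, from 29.3 to 20.6 TPM (-0.52, edgeR, adjusted p = 7.18e-18). Of the other factors of the p53 family, Trp63 had 33 reads over the IL libraries and 1 over the ILN libraries and was below the filter. Its reads per total were 34.7 times higher in IL, with an exact 95% interval of 5.81 to 1410 that covers counting error only. Trp73 was not listed.

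Further p53 targets moved far in both directions. Together, lists of genes for arrest, death, and repair or metabolism held 46 genes, of which 40 were tested. Of these 18 rose, 15 fell and 7 did not pass, so that 82.5% were called beside 80.0% of all genes. Past a log2 fold change of 1 in size stood 9 of the 40 that rose and 6 that fell, beside 6.48% and 10.1% of all genes tested, and the median over the 40 was 0.08. Of all genes tested, 40.2% were higher and 39.8% lower. The 5 rises and 2 falls of the core list, with Ccng1 at the edge of the threshold, are too few to compare with these. No difference between the lists was tested.

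Of the 11 arrest genes, 9 were tested, 5 rose and 2 fell, a called share of 77.8% that is near the 80.0% of all genes, with a median log2 fold change of 0.81. Gadd45a, a stress sensor that restrains the G2 to M transition, rose from 59.9, 61.3 and 56.0 TPM to 631, 659.5 and 641 TPM (log2 fold change 3.47 ± 0.04, SE, edgeR, adjusted p = 5.25e-55). Plk2, a stress-responsive polo-like kinase, rose from a mean of 14.4 to 138.7 TPM (3.30, edgeR, adjusted p = 8.4e-43). Plk3, a related kinase, rose from 7.73 to 55.9 TPM (2.89, edgeR, adjusted p = 7.05e-42). These rises were each larger than that of any core gene. E2f7, a repressor of E2F target genes, fell from 25.0 to 6.96 TPM (-1.81, edgeR, adjusted p = 1.77e-36).

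Of the 14 death genes, 12 were tested, 5 rose and 6 fell, with a median log2 fold change of -0.10. The called share was 91.7%, beside 80.0% of all genes, of which 40.2% were higher and 39.8% lower. Bbc3, which encodes the Bcl-2 antagonist PUMA, rose from 6.34, 5.71 and 5.58 TPM to 12.6, 15.6 and 12.7 TPM (log2 fold change 1.22, edgeR, adjusted p = 1.51e-15). Eda2r, a receptor of the tumour necrosis factor family, rose from a mean of 1.31 to 3.82 TPM (1.49, edgeR, adjusted p = 3.3e-16). The death receptor gene Fas went the other way, from 25.6, 28.8 and 26.5 TPM to 8.09, 10.01 and 8.27 TPM (-1.55, edgeR, adjusted p = 1.09e-21), as did Casp6, an executioner caspase, from 32.0 to 14.4 TPM (-1.13, edgeR, adjusted p = 4.43e-19). Bax, Aen and Bbc3 were higher, and Fas and Casp6 lower, in the same 3 libraries.

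Of the 21 repair and metabolism genes, 19 were tested, 8 rose and 7 fell, a called share of 78.9% beside 80.0% of all genes, with a median log2 fold change of 0.07. Sesn2, another sestrin, rose from 6.01, 6.64 and 7.44 TPM to 52.9, 54.4 and 54.0 TPM (log2 fold change 3.04 ± 0.06, SE, edgeR, adjusted p = 2.21e-43). Sesn1 had 4.36, 4.28 and 3.79 times the TPM of Sesn2 in the IL libraries, and Sesn2 had 3.80, 3.87 and 3.85 times the TPM of Sesn1 in the ILN libraries. Rrm2b, the p53-inducible ribonucleotide reductase subunit, rose from a mean of 6.24 to 14.6 TPM (1.25, edgeR, adjusted p = 1.31e-24). Dram1, which promotes autophagy, fell from 4.89 to 1.57 TPM (-1.60, edgeR, adjusted p = 1.95e-15), and the adenylate kinase gene Ak1 from 17.9 to 6.36 TPM (-1.46, edgeR, adjusted p = 1.11e-21).

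Some of these genes are also targets of ATF4 and CHOP, the transcription factors of the integrated stress response. Of 7 such genes, taken from the lists above, 5 were tested, and 4 rose (Gadd45a, Sesn2, Bbc3 and Tnfrsf10b) and 1 fell. Of all genes tested 40.2% were higher and 39.8% lower. The median log2 fold change of the 5 was 1.22, beside 0.00 over all genes, and from so few genes nothing is read about the list. Tnfrsf10b, a death receptor for TRAIL, rose from 15.9 to 28.9 TPM (0.89, edgeR, adjusted p = 2.1e-22). The fall was that of Ddit4, an mTORC1 inhibitor, from 190 to 133 TPM (-0.48, edgeR, adjusted p = 5.7e-05), a gene named after its values were seen. Gdf15 was below the filter, with 2 reads over the IL and 16 over the ILN libraries, a ratio of reads per total of 7.6 (exact 95% interval 1.79 to 68.1, counting error only). Which factor acted on any of these genes was not measured.

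Genes that p53 and p21 turn down through the DREAM repressor complex, mostly genes of replication and mitosis, were lower throughout the list. All 12 were tested and all 12 fell, beside 39.8% of all genes. Of the 12, 8 fell past a log2 fold change of 1 in size, beside 10.1% of all genes tested. The median was -1.35. Ccna2, cyclin A2, fell from 170.4, 170.9 and 177.5 TPM to 44.7, 45.2 and 45.1 TPM (log2 fold change -1.91, edgeR, adjusted p = 1.41e-46). Plk1, the mitotic kinase, fell from a mean of 92.3 to 26.4 TPM (-1.77, edgeR, adjusted p = 4.32e-39), Ccnb2, cyclin B2, from 213 to 62.8 TPM (-1.74, edgeR, adjusted p = 4.03e-41), and Top2a, topoisomerase II alpha, from 310 to 100.9 TPM (-1.59, edgeR, adjusted p = 7e-42). These transcripts are also those of cycling cells, and fewer cycling cells and less RNA per cell cannot be told apart here. The list was chosen with earlier results of these data known. Whether p53, p21 or the DREAM complex had a part in these falls was not tested.

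**Figure D4:**
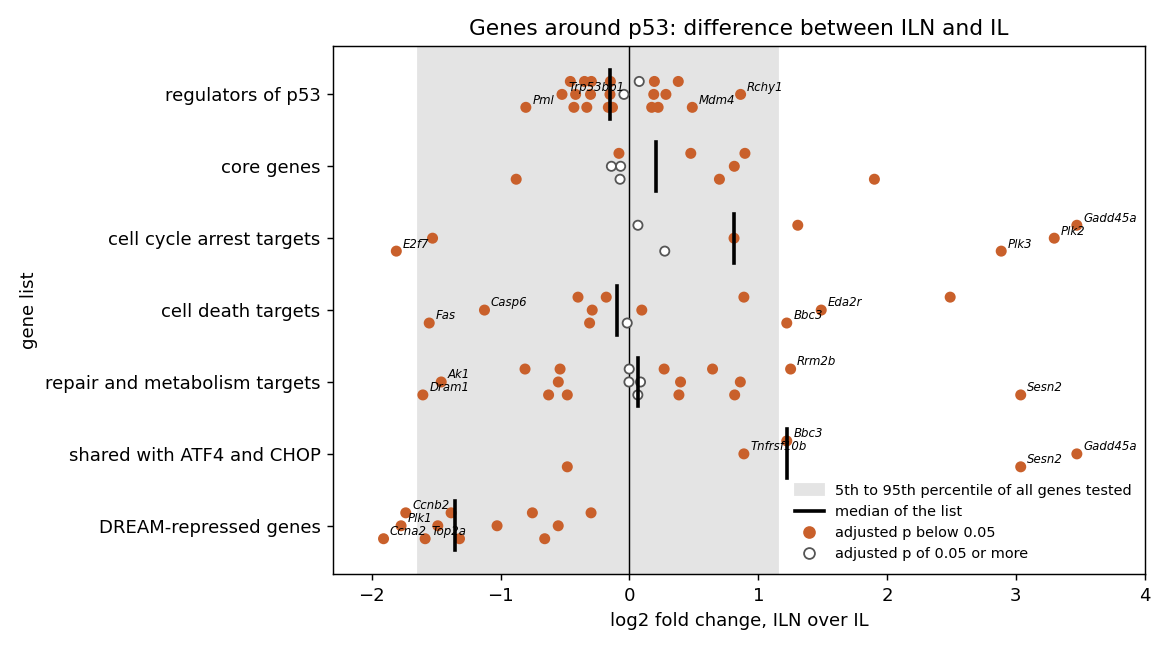
Log2 fold change, ILN over IL, of every tested gene of the core list and of 6 lists around p53 (points), with the median of each list as a black line and the 5th to 95th percentile of all 11983 genes tested in grey. The 12 DREAM-repressed genes all lie below 0, while targets for arrest, death, and repair or metabolism lie on both sides and Gadd45a, Plk2 and Sesn2 lie past 3.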

How the data were processed

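RNA from 2 groups of 3 libraries was sequenced. The submitters' processing notes name cutadapt, HISAT2 2.0, StringTie and the mm10 build, without their roles. The gene annotation and the strand setting were not given in the sources used here. The deposited table holds expected counts per gene as the authors estimated them, with 10.2% to 11.1% of the values in a library not whole, and the authors' FPKM (fragments per length and depth) and TPM made from them. Columns of group averages were not used. Groups and replicate numbers came from the sample titles.

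Expected counts were rounded and tested with edgeR 4.0.16 (R 4.3.3, quasi-likelihood, robust, TMM scaling, filterByExpr with a minimum count of 10), ILN over IL without pairing, with Benjamini-Hochberg adjustment over all 11983 genes tested. The common biological coefficient of variation was 2.33%. The study calls the libraries of a group biological replicates, and the sample titles do not say how separate the cultures were. The p-values reflect only the spread among these libraries. Standard errors are the log2 fold change divided by the root of its F statistic, and 95% intervals use the total degrees of freedom of the fit. TPM gave levels, and FPKM only the implied transcript length. DESeq2 1.42.0, limma 3.58.1 on TPM with a pseudocount of 1 or 0.1 and limma-voom were among the 15 alternatives. The fits were tested on simulated counts in which a small share of the genes changed. In the real data 80.0% of the genes tested were called, and the simulation does not cover a difference of that extent. Gene positions and promoter sequences are from RefSeq (GRCm38.p6), exon overlaps and transcripts from GENCODE M21.

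The 10 core genes and the other lists were chosen with earlier results of these data known. The genes named were the 10, up to 4 genes of each other list with the largest fold change among those called with a mean of at least 1 TPM, and Mdm4, Ppm1d, Cdkn2a, Trp63, Trp73, Fscn1, Col2a1, Acan and Sox9. Ddit4, Gdf15, the other cell type markers and the relatives in the closing section were named after values were seen. At 16615824 to 17735860 reads a library, counting error matters most for Cdkn1a and the genes below the filter.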

Additional observations from a re-analysis of the deposited data

How the results depend on the processing

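Across 15 alternatives (DESeq2's size factors or library size alone in edgeR, no filter, a filter of 10 CPM in 3 libraries, the replicate block, each library left out in turn, DESeq2, limma-voom, and limma on TPM with 2 pseudocounts) no core gene changed its direction, and 139 of 149 values kept their side of the threshold. The exceptions were Ccng1, whose call was lost in 8 alternatives (log2 fold change -0.12 to -0.05, adjusted p from 0.00829 to 0.270), and Phlda3, which both limma fits on TPM called lower (adjusted p = 0.0204 and 0.0202). Under the filter of 10 CPM no core gene was past both cutoffs, a count of 0 in place of 1, because Cdkn1a was not tested. With a library left out, 6 to 7 core genes were called, 1 was past both cutoffs, and 65 to 67 genes of the other lists were called beside 66 with all libraries. Those lists held 23 regulators, 40 further targets and 12 DREAM-repressed genes that were tested, and 80.0% of all genes tested were called. Their count was 59 under the filter of 10 CPM, which tests fewer genes, 69 without a filter and 64 with DESeq2. The value of Cdkn1a moved most, between 1.62 and 2.39 with a library left out and to 1.15 on the log2(TPM + 1) scale. The values showed no pairing by replicate number. Deviations of same-numbered libraries correlated at -0.0934, -0.0236 and 0.0259, and only ILN replicate 3 correlated best with its own number. With 3 libraries per group and little spread within a group, such correlations cannot exclude a paired design. With the replicate block, 6 core genes were called, Ccng1 being lost (adjusted p = 0.0697), and 65 genes of the other lists. Depth limited Cdkn1a and the genes below the filter.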

Other observations

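The nearest relatives by name of the core genes were read after the values of the core genes were known. Of 13 relatives, 12 were listed and 10 tested, and of these 5 rose and 5 fell, beside 40.2% of all genes higher and 39.8% lower. The sestrins did not move together: Sesn3 fell from 10.1, 11.2 and 11.7 TPM to 5.15, 4.44 and 4.48 TPM (log2 fold change -1.20 ± 0.10, SE, edgeR, adjusted p = 1.39e-15), as Sesn1 did, while Sesn2 rose. Among the cell cycle relatives, Ccng2, cyclin G2, fell from 32.0, 30.1 and 31.9 TPM to 11.6, 11.3 and 11.4 TPM (-1.43 ± 0.06, SE, edgeR, adjusted p = 6.61e-28), a larger change than that of Ccng1. Cdkn1b, which encodes the kinase inhibitor p27, rose from 59.5, 60.9 and 61.5 TPM to 73.2, 73.8 and 73.6 TPM (0.31 ± 0.04, SE, edgeR, adjusted p = 5.24e-11). In TPM, the Cdkn1b transcript was thus far above that of Cdkn1a in both groups, and neither protein was measured. Cdkn1c, the third member of that family, fell from 1.77, 1.78 and 1.55 TPM to 0.44, 0.38 and 0.59 TPM (-1.83 ± 0.29, SE, edgeR, adjusted p = 1.36e-07). The relatives of Bax moved apart. Bak1, which like Bax forms pores in the mitochondrial outer membrane, rose from a mean of 84.5 TPM to 95.99 TPM (0.21 ± 0.04, SE, edgeR, adjusted p = 1.04e-06), and Bok, another effector of the BCL2 family, fell from 25.3 to 19.46 TPM (-0.35 ± 0.07, SE, edgeR, adjusted p = 3.29e-05). Phlda1 fell from a mean of 21.1 to 10.96 TPM (-0.92, edgeR, adjusted p = 8.39e-16), and Trp53inp2 rose from 19.48 to 26.04 TPM (0.44, edgeR, adjusted p = 4.17e-13), where Phlda3 and Trp53inp1 had no call.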
